A study of Mus musculus with 3 samples.

Results

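The genes described here encode the subunits of the proteasome and the factors that bind it, and they comprised 37 of the 29273 gene names on the array, measured by 56 of its 41174 probes. They were chosen by name alone: every probe for a mouse gene named Psma, Psmb, Psmc or Psmd with a number, together with Psme3 and Psme4, and without the immunoproteasome genes Psmb8, Psmb9 and Psmb10. No measured value entered this rule, although earlier results of these data were known when it was set. Psmc3ip was caught by its name, but it encodes a partner of meiotic recombination proteins and is not a proteasome subunit. Its 2 probes are kept apart in the counts by role. They remain in the counts over all 56 probes, by gene and over promoters, except where the text says otherwise.

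The 26S proteasome is the protease that degrades proteins marked with ubiquitin in the cytosol and nucleus. Its 20S core is a barrel of stacked rings, with alpha subunits (Psma genes) forming the outer gates and beta subunits (Psmb genes) forming the inner rings, of which Psmb5, Psmb6 and Psmb7 carry the active sites. The 19S cap sits on the barrel: its base holds a ring of ATPases (Psmc genes) that unfold the substrate, and its lid, built from Psmd genes, removes the ubiquitin chain. Psme3 and Psme4 encode alternative caps that open the barrel without ATP. The subunit genes are known to be expressed in concert, and the transcription factors Nfe2l1 and Nfe2l2 are known to act on them.

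RNA of EpH4-PR cells was hybridised to 3 Agilent arrays that cover the mouse genome. EpH4 is a mouse mammary epithelial line, and EpH4-PR cells are EpH4 cells stably transfected with the A form of the progesterone receptor (PR-A), grown in DMEM with 10% FBS to about 75% confluence with no hormone named in the labels. On each array EpH4-PR RNA was labelled with Cy5 and the Stratagene mouse standard, a commercial reference RNA, with Cy3, and dyes were not swapped, so dye and RNA source cannot be told apart. The cells transfected with the empty vector (EpH4-EV) were not analysed here, so the values below set EpH4-PR cells against the reference RNA and say nothing of what PR does. Nothing in the labels says that the 3 arrays came from separate cultures, so the p-values measure the spread between these arrays, which may be technical.

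The values are log2 ratios of EpH4-PR over reference RNA, normalized within each array by loess. Loess draws the ratio of the bulk of the probes towards 0 along intensity, but the brightest probes stayed below 0. The median of all probes was -0.07 at a mean log2 intensity of 12 to 13. It was -0.29 at 13 to 14, -0.36 at 14 to 15 and -0.82 at 15 to 16. Median centring, which sets only the median of all probes to 0, is the scaling alternative that moved the counts most. Its values stand beside the results whose direction it turns. A probe was called higher or lower at an adjusted p under 0.05 by limma with Benjamini-Hochberg adjustment over 41171 tested probes. The labelled cell type was checked against its markers. Cdh1, Epcam, Krt7, Krt8 and Krt18 were all higher than in the reference RNA (5 of 5, log2 ratios from 1.11 to 4.29) and the 5 mesenchymal markers were all lower (from -6.51 to -1.30). The median Cy5 intensity over all spots was 112, 113 and 93.8 on replicates 1, 2 and 3.

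Most proteasome genes were higher in EpH4-PR RNA than in the reference RNA by a small amount. Of the 56 probes 36 were higher, 9 were lower and 11 did not pass the test by limma. Over all probes 25.7% were higher and 24.6% were lower, and over the 25728 probes that read well above background on every array in both channels these shares were 34.1% and 28.8%, against 64.3% and 16.1% of the proteasome probes. The median log2 ratio of the proteasome probes was 0.33, and it was 0.32, 0.28 and 0.31 on replicates 1, 2 and 3. The median was -0.01 over all probes and 0.04 over those well above background. Without the 2 Psmc3ip probes 34 of 54 were higher and the median was 0.34. At a log2 ratio of at least 1, 4 proteasome probes were higher and 0 were lower (limma, with 9 lower at any size), where 2.25% of all probes were higher and 3.85% lower by that much.

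**Figure D1:**
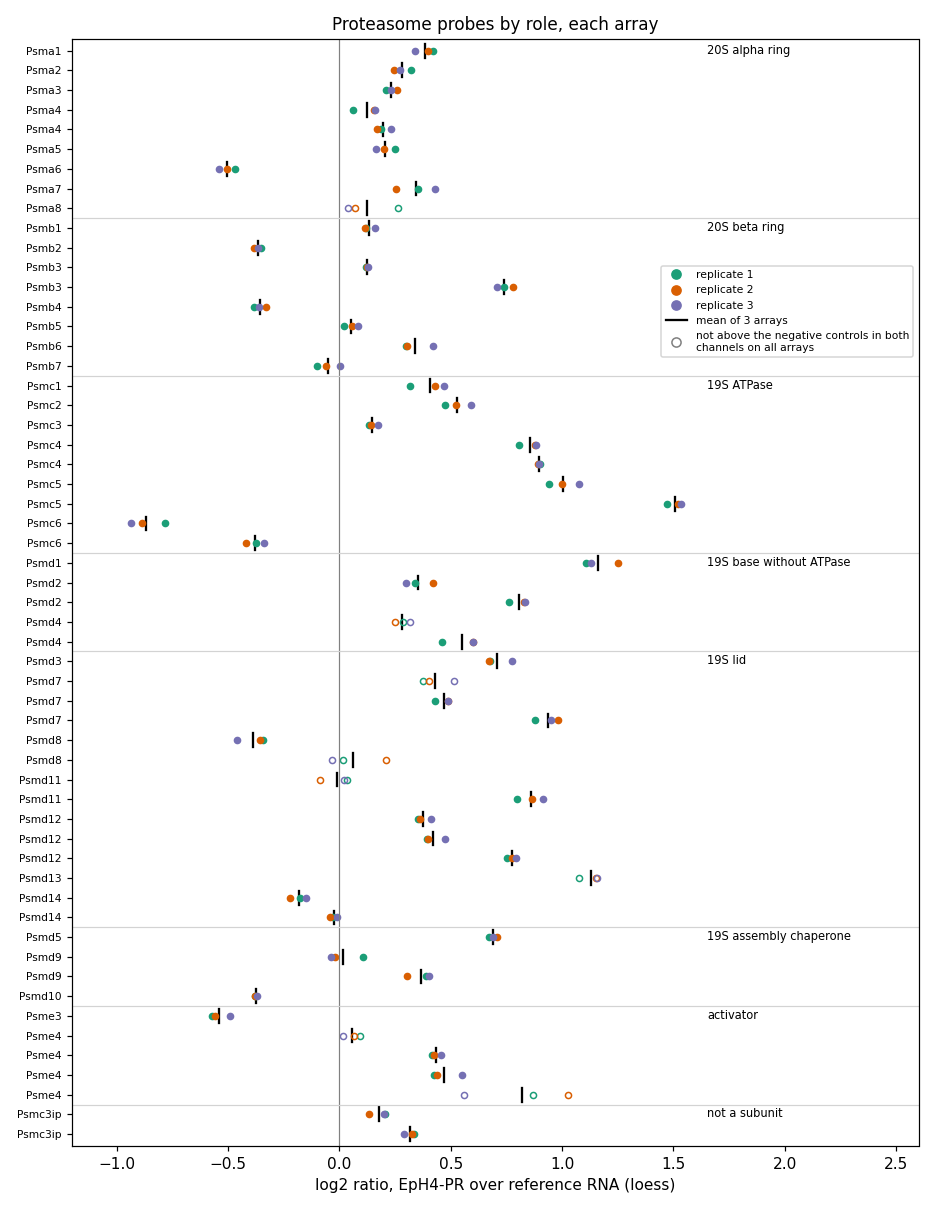
Log2 ratio after loess, EpH4-PR against reference RNA, for each of the 56 probes, grouped by role (horizontal axis: log2 ratio, vertical axis: gene of the probe). Points are the 3 arrays and the black bar is their mean; open points mark probes not above the negative controls in both channels on all arrays. Psmc5, Psmd1 and Psmd13 lie farthest right, and Psmc6, Psme3 and Psma6 farthest left.

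Counted by gene over the 48 probes above the 95th percentile of the negative control spots in both channels on all arrays, 21 genes had only higher probes. These were Psma1, Psma2, Psma3, Psma5, Psma7, Psmb6, Psmc1, Psmc2, Psmc3, Psmc4, Psmc5, Psmd1, Psmd2, Psmd3, Psmd4, Psmd5, Psmd7, Psmd11, Psmd12, Psme4 and Psmc3ip. A smaller set of 7 genes had only lower probes, namely Psma6, Psmb2, Psmb4, Psmc6, Psmd8, Psmd10 and Psme3, and every one of their probes in this count lay above 0 under median centring. Psma4, Psmb3, Psmd9 and Psmd14 had 1 called probe beside 1 that did not pass, and the single probes of Psmb1, Psmb5 and Psmb7 did not pass. Psma8 and Psmd13 were not in this count, because their reference signal was not above the negative controls on all arrays. No such count by gene was made over the whole array, so how these numbers differ from its share was not tested. By probe, 34.1% of all those well above background were higher and 28.8% lower.

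The promoters of the genes at both ends of this range are shown because these genes, known to be expressed in concert, differed most in ratio. RefSeq promoters (GRCm38.p6) were matched for 30 of the 37 genes, and the 250 bases before the start are printed for Psmc5 and Psmd1, at the high end, and for Psmc6 and Psme3, at the low end. Capitals mark matches on either strand to TGACNNNGC (the core of the antioxidant response element, bound by Nfe2l1 and Nfe2l2), to the CCAAT box, to the ETS site CCGGAAG and to the GC box GGGCGG, and no marked match overlapped another.
Psmc5 (chr11:106255935-106256184, plus strand): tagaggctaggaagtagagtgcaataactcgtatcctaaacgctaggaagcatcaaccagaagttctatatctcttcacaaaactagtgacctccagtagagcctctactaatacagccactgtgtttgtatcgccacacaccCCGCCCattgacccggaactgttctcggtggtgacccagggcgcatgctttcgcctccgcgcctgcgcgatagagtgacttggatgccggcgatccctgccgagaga
Psmd1 (chr1:86064369-86064618, plus strand): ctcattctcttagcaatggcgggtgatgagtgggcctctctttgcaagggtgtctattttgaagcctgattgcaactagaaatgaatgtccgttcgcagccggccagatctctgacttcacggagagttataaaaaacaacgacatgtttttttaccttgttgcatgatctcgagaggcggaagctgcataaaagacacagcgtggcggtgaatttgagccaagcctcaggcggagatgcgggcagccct
Psmc6 (chr14:45329574-45329823, plus strand): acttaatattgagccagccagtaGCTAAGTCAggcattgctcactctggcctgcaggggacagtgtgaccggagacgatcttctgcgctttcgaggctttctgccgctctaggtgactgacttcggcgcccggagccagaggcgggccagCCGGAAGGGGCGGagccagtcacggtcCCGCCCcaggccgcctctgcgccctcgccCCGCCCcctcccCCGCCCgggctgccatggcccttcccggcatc
Psme3 (chr11:101315963-101316212, plus strand): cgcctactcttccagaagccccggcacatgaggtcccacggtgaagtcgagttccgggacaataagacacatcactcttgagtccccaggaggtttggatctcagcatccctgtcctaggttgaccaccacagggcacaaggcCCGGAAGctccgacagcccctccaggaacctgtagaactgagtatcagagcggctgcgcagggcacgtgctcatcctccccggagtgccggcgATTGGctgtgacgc

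In these windows Psmc5 held 1 match, a GC box 107 bases before the start, and Psmd1 held 0. Psmc6 held 6: an antioxidant response element core 227 bases before the start, an ETS site at 100 bases and 4 GC boxes. Psme3 held an ETS site at 107 bases and a CCAAT box at 14 bases. Over the 32 promoters of the 30 matched genes, CCGGAAG was found in 12 (37.5%) against 6.91% of all 32851 promoters, GGGCGG in 17 (53.1%) against 32.7%, CCAAT in 13 (40.6%) against 33.8% and TGACNNNGC in 5 (15.6%) against 10.2%. Of the matched genes whose probes were all higher, 8 of 18 held CCGGAAG and 2 of 18 TGACNNNGC, and of those all lower 3 of 6 and 1 of 6 did. Psmc3ip, which is not a subunit, was among the matched genes and among those with CCGGAAG and CCAAT. A match is a description of letters and not a bound site.

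The alpha ring of the 20S core was slightly higher as a group, with 1 exception. Of its 9 probes 6 were higher, 1 was lower and 2 did not pass, with a median of 0.20. Over all probes well above background 34.1% were higher and 28.8% lower. Psma1 had the highest ratio of the ring after loess, with 0.42, 0.40 and 0.34 on the 3 arrays, which averaged 0.39 ± 0.04 (SD, n = 3; 1.31-fold, limma adjusted p = 0.0015). All 3 arrays lay well above 0. Psma7, which lay above Psma1 under median centring (1.85 against 1.84), read 0.35, 0.26 and 0.43, Psma2 averaged 0.28, Psma3 0.23 and Psma5 0.20, and each passed the test. The call was lost for Psma3 with normexp offset 0 and without replicate 2 (limma adjusted p = 0.065 and 0.068) and for Psma5 with offset 0 and without replicate 1 or 2 (limma adjusted p = 0.052, 0.091 and 0.087). Psma6 stood apart at -0.47, -0.50 and -0.54, a mean of -0.50 ± 0.03 (SD, n = 3; 1.42-fold lower, limma adjusted p = 0.00055), although it lay at 0.91 under median centring. On each array Psma1 exceeded Psma6 by 0.88 to 0.90 log2 units, and the difference of 0.89 ± 0.01 stayed between 0.85 and 0.97 under every alternative, median centring included. Psma8, a testis form of the alpha ring, had a reference signal below the negative control limit on every array and did not pass (0.12 ± 0.12; -0.04 under median centring).

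Of the 8 probes of the beta ring 2 were higher, 2 were lower and 4 did not pass, close to the shares over all probes, with a median of 0.09 (1.49 under median centring). Psmb6, the caspase-like active subunit, was higher at 0.30, 0.30 and 0.42, a mean of 0.34 ± 0.07 (SD, n = 3; 1.27-fold, limma adjusted p = 0.0034). Psmb5, the chymotrypsin-like subunit that is the main target of bortezomib, read 0.02, 0.06 and 0.08 and did not pass (mean 0.05 ± 0.03, limma adjusted p = 0.34; 1.42 and higher under median centring). Psmb7, the trypsin-like subunit, read -0.10, -0.06 and 0.00 and did not pass (mean -0.05 ± 0.05, limma adjusted p = 0.38; 1.10 and higher under median centring). Psmb6 thus lay above both other active subunits on every array, by 0.29 ± 0.05 over Psmb5 (0.26 to 0.40 under the alternatives) and by 0.39 ± 0.03 over Psmb7 (0.38 to 0.71).

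Among the structural beta subunits, Psmb2 was lower at -0.35, -0.38 and -0.37 (mean -0.37 ± 0.02, limma adjusted p = 0.0015; 0.85 under median centring). Psmb4 was lower at -0.39, -0.33 and -0.36 (mean -0.36 ± 0.03, limma adjusted p = 0.0018; 1.10 under median centring). Psmb1 lay at 0.13 ± 0.02 and just missed the threshold (limma adjusted p = 0.0501, with a log2 ratio of 1.56 under median centring). The probes of Psmb3 disagreed more than those of the other 11 genes with several probes above the negative controls. Of these, 1 read 0.74, 0.78 and 0.71 and was higher. The other Psmb3 probe, with the brighter spots, read 0.12, 0.12 and 0.13 and did not pass (limma adjusted p = 0.057, with a log2 ratio of 1.59 under median centring). A probe that the array lists for a predicted gene similar to the same subunit (LOC384862) read 0.76, 0.78 and 0.71, and signal shared between the gene and a near-identical copy was not tested, so the Psmb3 level is uncertain.

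After loess the ATPase ring of the 19S base held both the highest and the lowest ratio of the 56 probes. Of its 9 probes 7 were higher, 2 were lower and all passed, with a median of 0.53. The shares over all probes well above background were 34.1% higher and 28.8% lower. Psmc5, which encodes the ATPase Rpt6, had the highest ratio of all after loess, at 1.47, 1.52 and 1.53 with 1 probe (mean 1.51 ± 0.03, SD, n = 3; 2.85-fold, limma adjusted p = 2.5e-05). Its other probe read 0.94, 1.00 and 1.07 (mean 1.00 ± 0.07, 2.01-fold, limma adjusted p = 8.4e-05), so that the probes differed in size by 0.50 but not in direction. Psmc4 (Rpt3) gave 0.90 ± 0.01 and 0.86 ± 0.04 with its 2 probes, which differed by no more than the spread between arrays.

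Psmc6, which encodes the ATPase Rpt4 of the same ring, was lower with both of its probes. They read -0.78, -0.89 and -0.93 (mean -0.87 ± 0.08, SD, n = 3; 1.83-fold lower, limma adjusted p = 0.00015) and -0.37, -0.42 and -0.34 (mean -0.38 ± 0.04, limma adjusted p = 0.0017), but 0.09 and 1.06 under median centring. The order within the ring held under either scaling. The brighter probe of Psmc5 exceeded the brighter probe of Psmc6 by 1.31, 1.42 and 1.41 on the 3 arrays, a difference of 1.38 ± 0.06 that ranged from 1.36 to 1.41 over the alternatives. The remaining ATPases lay between them: Psmc2 at 0.53 ± 0.06, Psmc1 at 0.41 ± 0.08 and Psmc3 at 0.15 ± 0.02 all passed the test, but Psmc3 no longer passed when any 1 array was left out (limma adjusted p from 0.067 to 0.16).

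In the base subunits without ATPase activity all 5 probes were higher, with a median of 0.55, where 34.1% of all probes well above background were higher. Psmd1, a large scaffold of the base, read 1.11, 1.25 and 1.13 (mean 1.16 ± 0.08, SD, n = 3; 2.24-fold, limma adjusted p = 6.3e-05). Psmd2, the other scaffold, was higher with both probes at 0.81 ± 0.04 and 0.35 ± 0.06, and Psmd4, a ubiquitin receptor, at 0.55 ± 0.08 and, with a probe whose reference signal passed the negative controls on 1 array, at 0.28 ± 0.03.

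The lid was mostly higher: of its 14 probes 9 were higher, 2 were lower and 3 did not pass, with a median of 0.43. Among all probes well above background 34.1% were higher and 28.8% lower. Psmd13 had the highest lid ratio after loess at 1.08, 1.15 and 1.16 (mean 1.13 ± 0.04, SD, n = 3; 2.19-fold, limma adjusted p = 5.1e-05), with its reference signal above the negative controls on 2 of the 3 arrays. Its ratio was 1.49 with normexp offset 0 and 1.67 with the scanner log ratio, and under median centring its 1.99 lay below Psmd11 (2.30), Psmd3 (2.23) and Psmd7 (2.16). Psmd7 gave 0.94, 0.47 and 0.43 with its 3 probes. The probe at 0.43 had its reference signal above the negative controls on 2 of the 3 arrays. Its ratio was 0.69 with normexp offset 0 and 0.89 with the scanner log ratio. Psmd12 gave 0.77, 0.42 and 0.38, and Psmd3, with the brightest spots of any member, 0.71 ± 0.06. Psmd11 was higher at 0.86 ± 0.06 with 1 probe, and its other probe lay below the negative control limit in both channels and, in the EpH4-PR channel, near background. Psmd8 was the lowest of the lid at -0.34, -0.36 and -0.46 (mean -0.39 ± 0.06, limma adjusted p = 0.002; 0.75 under median centring), while its dim probe did not pass (0.06 ± 0.13; -0.10 under median centring). Psmd14, the deubiquitinase of the lid, lay near 0, at -0.18 ± 0.04 (limma adjusted p = 0.02, 1.22 under median centring) and -0.03 ± 0.01 (not passed, 1.33 under median centring), and the lower call was also lost without replicate 1 or 2 (limma adjusted p = 0.093 and 0.13).

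Taken over the cap and the core, the median of the 19S probes lay above that of the 20S probes on every array. Single probes overlapped, with means from -0.87 to 1.51 in the cap and from -0.50 to 0.74 in the core. The median over the 28 probes of the ATPases, base and lid was 0.45 and that over the 17 core probes 0.13. Their difference was 0.23, 0.30 and 0.34 on the 3 arrays, and its mean was 0.29 ± 0.06 (SD, n = 3), and it was 0.26 under median centring and 0.37 with offset 0, the ends of its range. Over the probes above the negative controls in both channels it was 0.36 ± 0.06. With 3 arrays the smallest p that an exact two-sided sign test allows is 0.25, so no test of this difference is given. The core probes had a higher median intensity than the cap probes (mean log2 intensity of both channels 11.2 against 9.80), and the part of intensity in the difference was not tested.

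Psmd5, Psmd9 and Psmd10 encode chaperones that assemble the 19S base and leave it afterwards, and they did not move as a group. Psmd5 was higher at 0.67, 0.71 and 0.69 (mean 0.69 ± 0.02, limma adjusted p = 0.00017). Psmd10, also known as gankyrin, was lower at -0.38, -0.38 and -0.37 (mean -0.38 ± 0.01, limma adjusted p = 0.0014; 0.79 under median centring). Psmd9 was higher with 1 probe (0.37 ± 0.06) and did not pass with the other (0.02 ± 0.08, and 0.71 under median centring).

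The alternative caps differed in direction. Psme3, which encodes PA28 gamma, the activator of the nucleus, was lower at -0.57, -0.56 and -0.49 (mean -0.54 ± 0.04, SD, n = 3; 1.45-fold lower, limma adjusted p = 0.00047; 0.89 under median centring). Psme4, which encodes PA200, was higher with 3 of its 4 probes. The pair above the negative controls read 0.43, 0.44 and 0.55 with 1 probe (mean 0.47 ± 0.07) and 0.42, 0.43 and 0.46 with the other (mean 0.43 ± 0.02), a difference smaller than the spread between arrays. A probe with a reference signal below the negative control limit read 0.87, 1.03 and 0.56, the widest spread of any member, with a mean of 0.82 that was 2.01 with normexp offset 0, and the last, with an EpH4-PR signal near background, did not pass (0.06 ± 0.04; -0.18 under median centring). Psmc3ip, which is not a subunit, was higher at 0.32 ± 0.02 and 0.18 ± 0.04.

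Probes of the same gene gave the same direction more often than the same size. Of the 12 genes with several probes above the negative controls, 0 had probes called in opposite directions by limma, while 2 (Psmb3 and Psmc5) had means that differed by over 0.5 and 10 differed by more than the largest SD of their probes. The differences ran from 0.04 to 0.62, with a median of 0.37. In 9 of the 12 genes the probe with the brighter spots had the ratio nearer to 0. The SD between arrays had a median of 0.04 over the proteasome probes and 0.09 over all probes.

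The share of higher probes depended on how the arrays were scaled. The proteasome probes were bright, with a median mean log2 intensity of 9.80 against 6.54 over all probes. Under median centring the ratio of all probes climbed with intensity, from a median of -0.17 between 6 and 7 to 1.25 between 9 and 10, where loess gave -0.01 and 0.05. The proteasome median under median centring was 1.55, with 51 higher and 2 lower probes, where 42.5% of all probes were higher and 40.9% lower. Of the probes that read well above background on every array, 65.4% were then higher and 18.3% lower. Set against all probes of their own intensity, 43 of 56 proteasome probes lay above the median of their intensity bin after loess and 44 of 56 under median centring. Loess subtracts a curve along intensity and median centring a constant, so within a bin these counts could hardly differ and are not separate results.

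**Figure D2:**
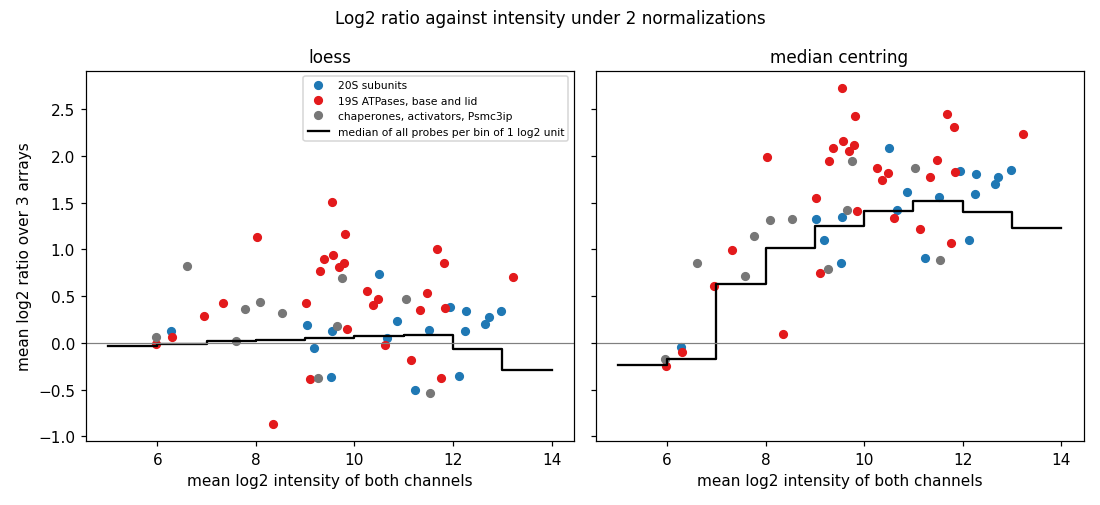
Mean log2 ratio over 3 arrays (vertical axis) against the mean log2 intensity of both channels (horizontal axis) for the 56 probes, after loess (left) and median centring (right). Blue points are 20S subunits, red points 19S ATPases, base and lid, grey points the others, and the black line is the median of all probes in bins of 1 log2 unit. The line stays near 0 below an intensity of 12 after loess and climbs to 1.52 under median centring, and most points lie above it in both panels.

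In the immunoproteasome Psmb8, Psmb9 and Psmb10 replace Psmb5, Psmb6 and Psmb7 after interferon signals. Its list also holds Psme1 and a probe set named Psme2b. After loess all 7 probes of the list were lower than in the reference RNA, with a median of -0.48, where 24.6% of all probes were lower. Under median centring 4 of the 7 lay above 0, with a median of 0.88. Psmb9 read -1.97, -1.98 and -2.34 (mean -2.10 ± 0.21, SD, n = 3; 4.28-fold lower, limma adjusted p = 5.9e-05). The 2 Psmb8 probes gave -1.93 ± 0.04 (3.82-fold lower) and -1.61 ± 0.03 (3.05-fold lower). These 3 probes were also below 0 under median centring (-1.34, -0.90 and -0.82). Psmb10 was far closer to its constitutive counterpart Psmb7, at -0.15 ± 0.01 (limma adjusted p = 0.036; 1.24 under median centring).

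Psme1, which encodes PA28 alpha, was lower at -0.48 ± 0.05 (0.88 under median centring), and the probes named Psme2b gave -0.14 ± 0.03 and -0.26 ± 0.04 (1.31 and 1.22 under median centring). Psme2b and Psme2 are near-identical and Psme2 had no probe under its own name, so these 2 values are uncertain as to gene. The 4 blood markers were 0 higher and 2 lower: Ptprc, which marks white blood cells, was lower with an EpH4-PR signal not well above background on any array, Cd52 was lower with an EpH4-PR signal above the negative controls on 1 of the 3 arrays, and the globin genes Hba-a1 (0.05) and Hbb-b1 (-0.15) did not pass. The part of blood cell RNA in the reference in the immunoproteasome ratios was not tested.

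**Figure D3:**
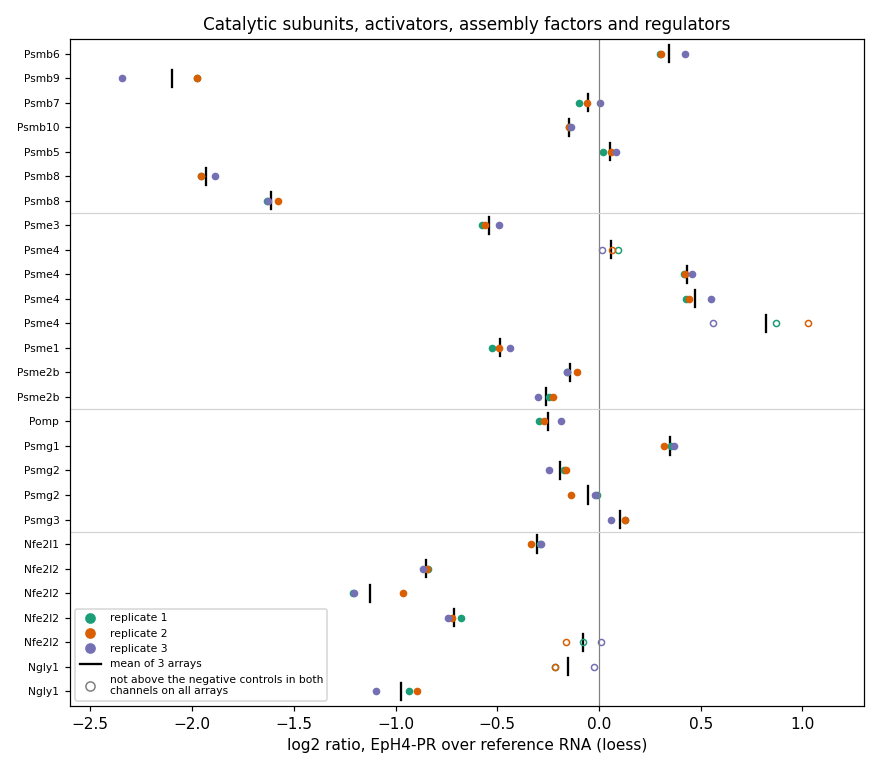
Log2 ratio after loess, EpH4-PR against reference RNA (horizontal axis) for the catalytic subunits beside their immunoproteasome counterparts, then the activators, the assembly factors and the regulators (vertical axis: gene of each probe). Points are the 3 arrays, black bars their mean, and open points probes not above the negative controls in both channels on all arrays. Psmb9 and Psmb8 lie between -2.34 and -1.58, while Psmb5, Psmb6 and Psmb7 lie between -0.10 and 0.42.

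Of the 5 probes for assembly factors of the 20S core 1 was higher, 2 were lower and 2 did not pass, where 25.7% of all probes were higher and 24.6% lower, and all 5 lay above 0 under median centring. Psmg1 was higher at 0.35 ± 0.02. Pomp, the maturation factor that is the first substrate of the finished core, was lower at -0.25 ± 0.06 (1.23 under median centring). Psmg2, the partner of Psmg1, was lower with 1 probe at -0.19 ± 0.04 (0.96 under median centring) and did not pass with the other (-0.06 ± 0.07), and Psmg3 did not pass at 0.10 ± 0.04.

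Of the 7 probes for regulators of proteasome genes 0 were higher, 5 were lower and 2 did not pass by limma, where 25.7% of all probes were higher and 24.6% lower, and their median was -0.71. Under median centring 3 of the 7 lay above 0. Nfe2l2 was lower with 3 probes at -0.85 ± 0.01, -1.13 ± 0.14 and -0.71 ± 0.03, which lay at 0.46, -0.76 and 0.58 under median centring, and its dim probe did not pass (-0.08 ± 0.09). Nfe2l1 was lower at -0.30 ± 0.03 (1.12 under median centring). Ngly1, the glycanase that activates Nfe2l1, was lower with 1 probe at -0.97 ± 0.11 (-0.29 under median centring). Its other probe, dim and below the negative control limit in both channels on every array, did not pass.

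For proteins that dock on the proteasome 18 of 25 probes were higher, 3 were lower and 4 did not pass, with a median of 0.30, where 25.7% of all probes were higher and 24.6% lower. Only 17 of these 25 probes were above the negative controls in both channels on all arrays. Psmf1, which encodes the inhibitor PI31, was higher with 2 probes at 0.23 ± 0.08 and 0.20 ± 0.07, of which the first lay at 0.00 under median centring, and did not pass with the remaining probe (0.08 ± 0.04). The reference signal of these Psmf1 probes was above the negative controls on 0, 1 and 1 of the 3 arrays, in that order. Psmd6, a lid subunit that the array carries under an older clone name and that the choice by name therefore missed, was higher at 0.23 ± 0.05. For the unfoldase p97 and its cofactors 3 of 5 probes were higher and 0 lower, with a median of 0.66. For ubiquitin and its activating enzymes 3 of 12 were higher and 6 lower, with a median of -0.14 that lay at 1.10 under median centring. These probes were bright, with a median mean log2 intensity of 12.7, and between 12 and 13 the median of all probes after loess was -0.07. The part of intensity in the ubiquitin median was not tested. Over all probes 25.7% were higher and 24.6% lower, so the higher share of the ubiquitin list (25.0%) was that of the array.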

How the data were processed

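EpH4-PR RNA was hybridised with a reference RNA to 3 two-colour arrays, 1 on a slide. The authors deposited the output of Agilent Feature Extraction 8.1.1.1, with the intensity and local background intensity of each spot in both channels and the log10 of the ratio of Cy5 to Cy3. A further deposited table, with the authors' fold changes and p-values between unnamed groups, was not used. The number of arrays limits the precision.

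Mean intensities were corrected with normexp (offset 50) and normalized by loess in limma 3.58.1 (R 4.3.3), control spots were given no weight, and outlier spots (150, 18 and 3) were left out. Spots of a probe were averaged, and log2 ratios computed from the deposited intensities were tested against 0 with lmFit and eBayes over 41171 of 41174 probes (the other 3 had values on fewer than 2 arrays). The script was tested on simulated data. A channel was compared with the 95th percentile of 314 negative control spots. Names were updated by accession through RefSeq's list for GRCm38.p6, and no probe coordinates are given, since no build is named for the files. Tables were written with Python 3.11.15.

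The members and lists were chosen with earlier results of these data known. Values per array were given for the highest and lowest probe of each role, the catalytic subunits, the activators and genes whose probes differed by over 0.5. The split of the 19S into ATPases, base, lid and chaperones, the differences between probes or roles, the limit from the negative controls, the comparison by intensity bin, the promoters shown and the motifs were chosen after the values were seen, as was the naming of Psmd5 and Psmd12 and other genes outside that rule. Alternatives were normexp offset 0, the scanner log ratio, median centring, a dim probe filter, outlier spots kept, an intensity trend, the median spot intensity, leaving out each array, averaging the probes of a gene, and the methods' t-test.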

Additional observations from a re-analysis of the deposited data

How the results depend on the processing

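Of the 56 proteasome probes 29 kept their direction and their side of the threshold under every alternative. The count of higher probes (36) ran from 31 to 51 over probes, and it was 26 of 37 genes with the probes of a gene averaged; without single arrays it ran from 31 to 35. The count of lower probes (9) was 2 under median centring and otherwise 8 or 9 over probes, and 7 of 37 genes with the probes of a gene averaged. The median of 0.33 was 0.38 with normexp offset 0, 0.41 with the scanner log ratio, 1.55 under median centring, 0.28 with the probes of a gene averaged, and 0.30 to 0.33 without single arrays.

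Median centring turned 14 probes and brought 6 others past the threshold: Psmc6 to 0.0939 and 1.06, Psmd10 to 0.79, Psmd14 to 1.22 and 1.33, Psmd8 to 0.75 and -0.0983, Psma6 to 0.91, Psma8 to -0.0440, Psmb2 to 0.85, Psmb4 to 1.10, Psmb7 to 1.10, Psme3 to 0.89 and the dim Psme4 probe to -0.18. Probes of 3 genes near 0 turned elsewhere without passing the test: Psmd9 to -0.0127 with the median spot intensity and the dim Psmd11 probe to 0.0155 with offset 0. Without single arrays Psmd9 ran from -0.0289 to 0.0426, the dim Psmd11 probe from -0.0331 to 0.0269 and the dim Psmd8 probe from -0.0097 to 0.112. The calls of Psma3, Psma4, Psma5, Psmc3, Psmd14 (1 probe each) and of 1 Psmc3ip probe were lost when replicate 2, and for all but Psma3 also when replicate 1, was left out, and that of Psmc3 also without replicate 3. Normexp offset 0 cost these 6 probes their calls, and the adjusted t-test of the methods those of Psma5, Psma7, a dim Psme4 probe and the same Psmc3ip probe. The cause was not tested. No paired analysis was possible because the arrays form 1 group. Dim spots limit the values of 8 of the probes, whose signal did not exceed the negative controls in both channels on all arrays.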

Other observations

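The array also held 9 probes that it describes as proteasome sequences under other names, which the choice by name did not take. Of these 4 were higher than in the reference RNA and 5 did not pass (limma). The highest was the Psmb3-like LOC384862 at 0.75 ± 0.04 (SD, n = 3). A transcript cluster similar to Psmd1 was higher at 0.41 ± 0.13, 1 similar to Psma7 at 0.30 ± 0.15 and an expressed sequence tag described as a proteasome Z subunit precursor (AI390493) at 0.24 ± 0.15, and the reference signal of these 3 was not above the negative controls on all arrays. Both probes for Psmb11, the thymus form of the catalytic beta ring, did not pass (-0.10 ± 0.44 and -0.09 ± 0.09).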
